A study of Pagiophloeus tsushimanus with 15 samples.

Results

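The additive in the diet, taken over both of its doses, was compared in whole-body RNA of Pagiophloeus tsushimanus, a weevil whose larvae feed on the camphor tree. The comparison took in 12 of the 15 RNA-seq libraries of the series, chosen by their diet labels alone. Larvae fed the additive labelled EO gave 6 libraries, 3 at 10 mg/g and 3 at 30 mg/g. Larvae on a diet with D-camphor, a monoterpenoid ketone of plants, gave the other 6, 3 at 17 mg/g and 3 at 41 mg/g. The remaining 3 libraries came from larvae on a diet without terpenoid and are given as values only. The labels do not say what EO consists of, and the doses in mg/g differ between the additives, so a lower dose of one was set against a lower dose of the other without being equal to it. Levels are the deposited TPM values, read counts scaled to transcript length and to a fixed library total, of assembled unigenes, the groups of transcripts that an assembler treats as 1 gene, and unigene names are given without their shared prefix TRINITY.

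Insects oxidise many fat-soluble plant compounds with cytochrome P450 monooxygenases, haem enzymes of the endoplasmic reticulum and, for some, of mitochondria. Family 6 of these enzymes is the one most often tied to plant toxins in herbivorous insects, and epoxide hydrolases, transferases that attach glutathione or sugars, and ABC transporters act on such compounds or their products. The cuticle, made of chitin and structural proteins secreted by the epidermis, is the outer barrier of the larva.

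On the first principal component, 28.3% of the variance, replicate 1 of either EO dose and D-camphor 41 mg/g replicate 2 stood apart, and the additives did not separate (exact permutation p = 0.660). The third component, 11.4% of the variance, gave an exact permutation p of 0.039 between the additives, or 0.110 after Benjamini-Hochberg adjustment over the 3 components tested. Where leaving out these 3 libraries together changed the call over both doses of a unigene named here, this is said beside it.

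Few unigenes were called between the additives, which does not show that few differed. Family 6 P450s led the called ones that were higher on EO at both dose levels. Of the 12413 unigenes tested, those that averaged 1 TPM or more over the 12 libraries, 6 were higher on EO than on D-camphor (0.0483%) and 3 were lower (0.0242%), 9 in all (0.0725%), at a Benjamini-Hochberg adjusted p under 0.05 in limma. Of the 6 that were higher, 3 are described as family 6 P450s and 3 carry only the description "unknown". At an unadjusted p under 0.05 there were 1484 unigenes (12%). All 9 differed by at least 2-fold, and in all 9 the difference was larger at the higher doses than at the lower. The 3 lower ones had differences of only -0.44 to 0.04 at the lower doses, on the log2(TPM + 1) scale, so their calls rest on the higher doses. They also reached the mean of 1 TPM only through the D-camphor 41 mg/g libraries. Without the 3 libraries that stood apart 24 unigenes were called, 7 higher and 17 lower on EO, and 6 of the 9 were among them. With the lower doses alone, EO 10 mg/g against D-camphor 17 mg/g, 1 unigene passed (0.00806%), beside 1467 at an unadjusted p under 0.05 (11.8%). With the higher doses alone, EO 30 mg/g against D-camphor 41 mg/g, 14 passed (0.113%), 8 of them higher (0.0644%) and 6 lower on EO (0.0483%), and they included all 9. Below an unadjusted p of 0.05 the lower doses had 125 unigenes higher on EO (1.01%) and 1342 lower (10.8%), and the higher doses had 818 higher (6.59%) and 788 lower (6.35%). Whether a unigene's additive difference itself changed between the dose levels was tested too, and 1 unigene passed (0.00806%), beside 1659 at an unadjusted p under 0.05 (13.4%), of which EO minus D-camphor was the larger at the higher doses in 1360 (11%) and the smaller in 299 (2.41%). These splits depend on how the libraries are set on 1 scale. Median-of-ratios scaling, another way to do so, moved the median difference of all tested unigenes from -0.148 to 0.018 at the lower doses. At the higher doses that median moved from -0.021 to 0.027. The unadjusted counts at each dose level were not made after scaling. As nothing says that replicates came from separate animals or pools, these p-values measure only the spread between the 3 libraries of each diet.

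The unigene with the smallest p was DN9219_c0_g1, described as cytochrome P450 6a2-like. Its level was 55.7, 57.6 and 89.6 TPM on EO 10 mg/g and 681, 588 and 398 TPM on EO 30 mg/g. On D-camphor it was 7.95, 11.01 and 5.58 TPM at 17 mg/g and 23.8, 18.6 and 16.0 TPM at 41 mg/g, and in untreated larvae 1.36, 0.70 and 1.76 TPM. Every EO library lay above every D-camphor library, so that EO at 10 mg/g exceeded D-camphor at 41 mg/g, and every D-camphor library lay above the untreated ones. On the log2(TPM + 1) scale the difference, EO minus D-camphor, was 3.83 ± 0.20 (SE, 6 libraries against 6), or 14.2-fold, with an adjusted p of 4.4e-05 in limma. It was the only unigene called at each dose level alone, by 2.91 for the lower doses (adjusted p = 0.0161 in limma) and 4.75 for the higher ones (adjusted p = 0.000158). The difference between these, 1.84, had a 95% interval of 0.94 to 2.73 and an adjusted p of 0.130 in limma. Its call at the lower doses held in 8 of 12 refits that omitted a library. It was lost without EO 10 mg/g replicate 1, D-camphor 41 mg/g replicate 2, or replicate 1 or 3 of D-camphor 17 mg/g (adjusted p of 0.0556 to 0.0908 in limma), and also without the 3 libraries that stood apart (0.174).

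The second P450, DN12993_c0_g1, is described as probable cytochrome P450 6a20. It stood at 94.0, 77.0 and 343 TPM on EO 10 mg/g and at 737, 920 and 595 TPM on EO 30 mg/g. The D-camphor larvae had 51.0, 37.0 and 41.5 TPM at 17 mg/g and 45.4, 20.4 and 35.0 TPM at 41 mg/g, while 2 untreated libraries were listed at 0 and the third at 1.28 TPM. EO again lay wholly above D-camphor, and the D-camphor doses overlapped each other. The difference was 3.07 ± 0.35 on the log2(TPM + 1) scale (adjusted p = 0.0103 in limma), with 1.64 for the lower doses and 4.49 for the higher ones. Its call ended when D-camphor 17 mg/g replicate 2 or replicate 3 was left out (adjusted p up to 0.0542 in limma), and also without the 3 libraries that stood apart.

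The third, DN1085_c0_g1, is described as probable cytochrome P450 6a14. Its level was 142, 166 and 371 TPM on EO 10 mg/g and 861, 1163 and 790.1 TPM on EO 30 mg/g. It was 77.0, 71.2 and 66.0 TPM on D-camphor 17 mg/g, 144, 89.1 and 96.2 TPM on D-camphor 41 mg/g and 24.6, 30.04 and 49.2 TPM in untreated larvae. The additives overlapped by 1 pair of libraries, since EO 10 mg/g replicate 1 lay just below D-camphor 41 mg/g replicate 1. The difference was 2.31 ± 0.23 on the log2(TPM + 1) scale (adjusted p = 0.0059 in limma), or 4.95-fold. The unigene DN1904_c0_g1, described only as unknown and named here after its values were seen, had levels close to those of DN1085_c0_g1 in every library. The ratio of the levels, DN1085_c0_g1 over DN1904_c0_g1, was 0.903 to 1.05 on EO, 0.771 to 1.01 on D-camphor and 0.869 to 1.16 in untreated larvae. Its difference of 2.15 ± 0.25 (adjusted p = 0.0103 in limma) may therefore not be a separate measurement, as how reads were divided between similar unigenes is not given in the sources used here. It was no longer called when any 1 of the D-camphor 17 mg/g libraries was left out, nor without the 3 libraries that stood apart.

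A pair of unigenes from 1 assembly cluster, DN986_c0_g1 and DN986_c0_g2, both described as unknown, were the most abundant of those called. DN986_c0_g1 was at 491, 864 and 1309 TPM on EO 10 mg/g and at 1589.6, 1896 and 1642 TPM on EO 30 mg/g. It was at 212, 244 and 167 TPM on D-camphor 17 mg/g, at 301, 136 and 190.4 TPM on D-camphor 41 mg/g and at 28.5, 48.0 and 29.4 TPM in untreated larvae. All EO libraries lay above all D-camphor libraries, and the D-camphor doses overlapped. The difference was 2.55 ± 0.26 on the log2(TPM + 1) scale (adjusted p = 0.0059 in limma). DN986_c0_g2 was at 1129.6, 1464 and 1898 TPM on EO 10 mg/g and at 3473, 2912 and 2659 TPM on EO 30 mg/g. It was at 817, 828 and 785 TPM on D-camphor 17 mg/g, 938, 672 and 877 TPM on D-camphor 41 mg/g and 576, 782 and 613 TPM in untreated larvae. Here too EO lay above D-camphor throughout, while D-camphor and untreated larvae overlapped. The difference was 1.36 ± 0.14 (adjusted p = 0.0065 in limma). The level of g1 relative to g2 was 0.434 to 0.690 on EO, 0.202 to 0.321 on D-camphor and 0.048 to 0.0614 in untreated larvae, so the members of the pair differed in unequal measure, and their reads may be partly shared.

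**Figure D1:**
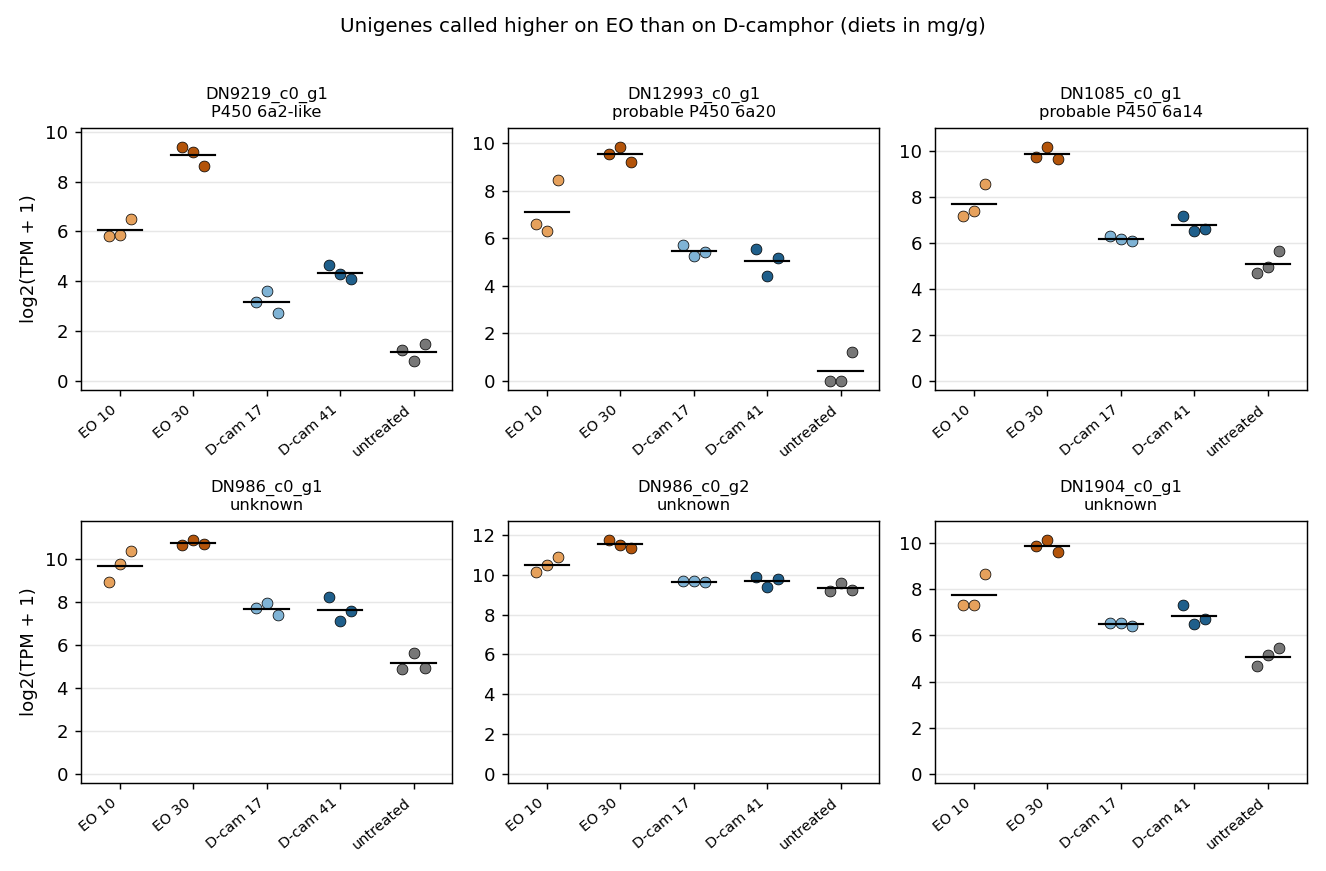
Levels of the 6 unigenes called higher on EO than on D-camphor, as log2(TPM + 1), in each library (points, replicates 1 to 3 from left to right) with the mean of each diet (bars); EO 10 and 30, D-camphor 17 and 41 are mg/g. EO libraries lay above all D-camphor libraries in 4 of the 6 unigenes, and EO 30 mg/g was the highest diet in each.

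All 6 had the same sign at both dose levels, as did 6350 of the tested unigenes (51.2%), and in none did the test of the difference between the dose levels pass. A missed threshold does not show equal differences: the estimate at the higher doses exceeded that at the lower doses by 1.01 to 2.85 on the log2(TPM + 1) scale in the 6, and the 95% interval of that excess lay above 0 in all but DN986_c0_g1, where it was -0.04 to 2.24. When 1 mean per additive was fitted, with the dose left out of the model, the dose steps entered the spread between libraries and only DN986_c0_g1 was still called (adjusted p = 0.0496 in limma).

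**Figure D2:**
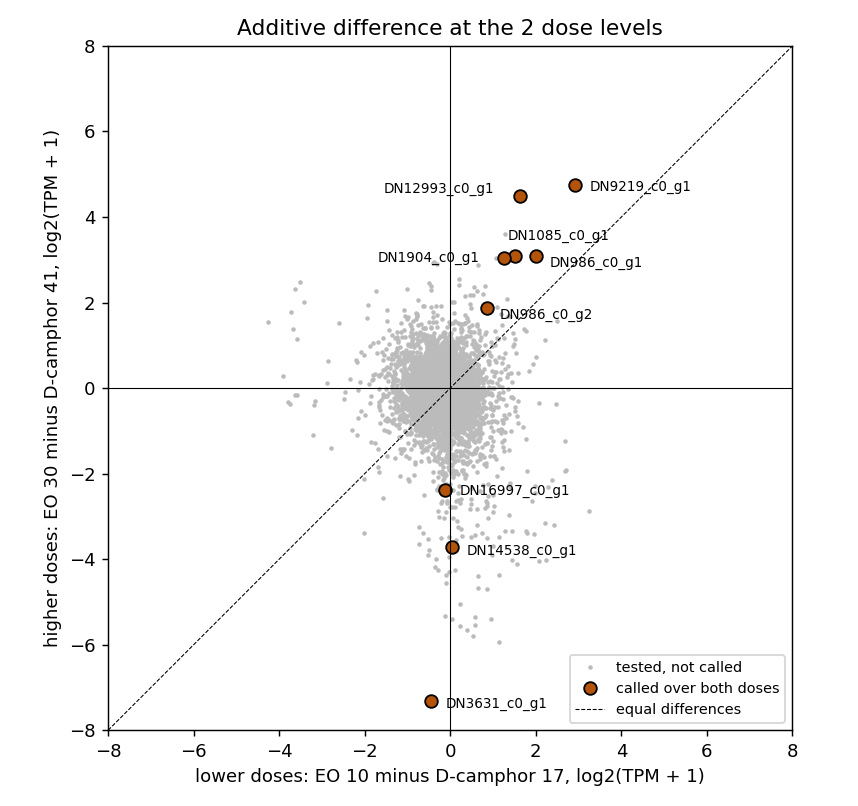
Difference between EO and D-camphor, on the log2(TPM + 1) scale, at the lower doses (x axis) and at the higher doses (y axis) for the 12413 tested unigenes, with the 9 called over both doses in orange and a dashed line of equal differences. The 6 higher on EO lie above the dashed line at the upper right, and the 3 lower on EO lie near 0 on the x axis.

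Another family 6 P450, DN32261_c0_g1, also described as cytochrome P450 6a2-like, was not called. It had 41.3, 37.1 and 138 TPM on EO 10 mg/g and 131, 271 and 181 TPM on EO 30 mg/g. It had 28.5, 27.3 and 17.4 TPM on D-camphor 17 mg/g, 34.9, 12.6 and 6.30 TPM on D-camphor 41 mg/g and 0.49, 0.53 and 1.16 TPM in untreated larvae. The additives did not overlap, but the difference of 2.45 ± 0.44 on the log2(TPM + 1) scale had an adjusted p of 0.144 in limma. Leaving out D-camphor 41 mg/g replicate 1 brought it to 0.0461.

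P450s as a whole had a median difference near that of all unigenes. The table describes 70 unigenes as P450s, and 38 of them reached the mean of 1 TPM. Of these, 3 were higher on EO and none was lower, against the 0.0483% and 0.0242% over all tested unigenes. At an unadjusted p under 0.05 the counts were 8 higher (21.1%) and 2 lower (5.26%), against 2.11% and 9.84% of all tested unigenes. The median difference over the 38 was -0.02 on the log2(TPM + 1) scale, beside -0.08 over all tested unigenes, and 18 of the 38 estimates were positive. After median-of-ratios scaling these became 0.11, 0.02 and 24. Without the 3 libraries that stood apart the median was 0.06, beside -0.06 over all tested unigenes, and 2 P450s were called. Family 6 held 18 of the 38 and all 3 calls, with a median of 0.09. The 7 members of family 4, which includes enzymes of cuticular hydrocarbon synthesis, ran from -0.67 to 0.45 with none called. The lowest of them, DN2716_c0_g3, described as CYP4G55v3 and named after its values were seen, averaged 328 TPM on EO and 504 TPM on D-camphor (-0.67, adjusted p = 0.336 in limma). The 4 members of family 9 ran from -0.27 to 0.16.

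**Figure D3:**
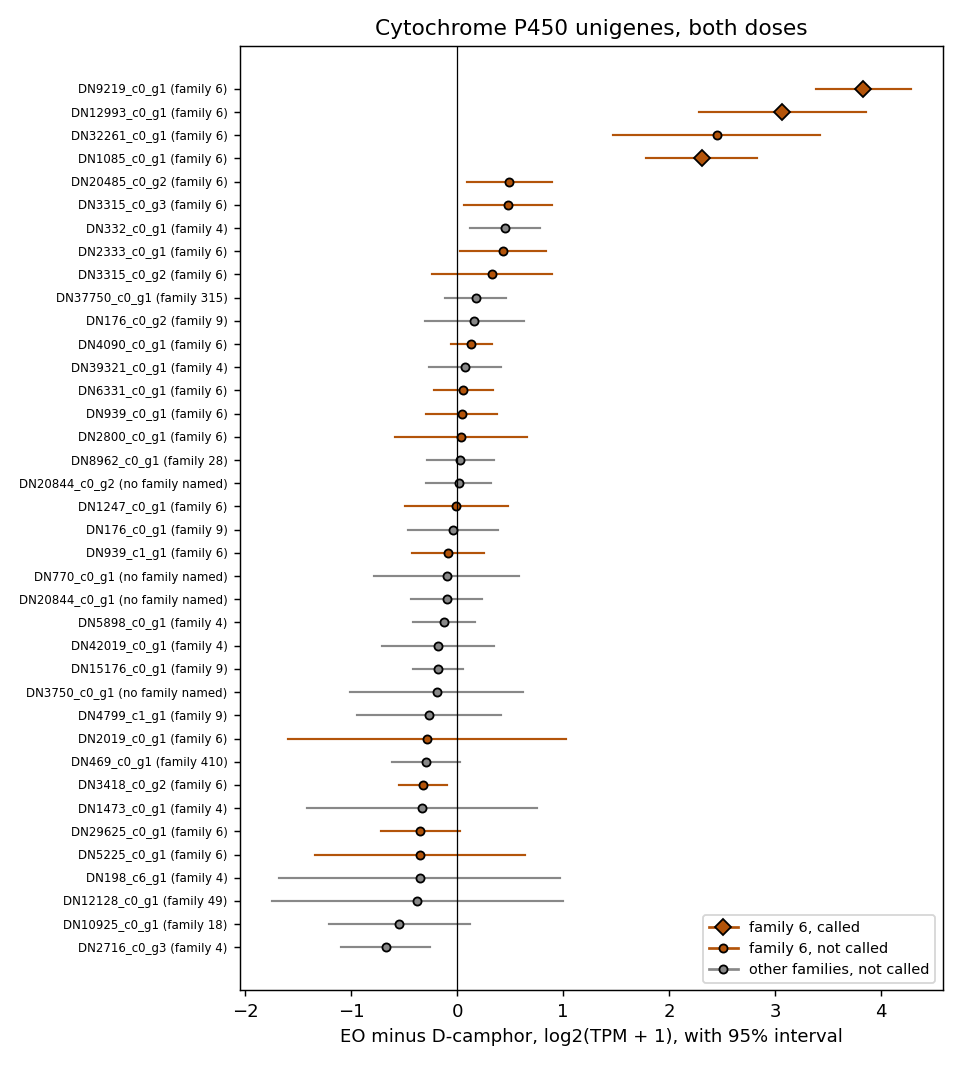
Difference between EO and D-camphor over both doses for the 38 tested P450 unigenes, on the log2(TPM + 1) scale with 95% intervals, ordered by size; orange is family 6, and diamonds are called. The uppermost 4, all of family 6, lie between 2.31 and 3.83, and the other 34 lie between -0.67 and 0.49.

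These 4 family 6 unigenes are those with the largest differences of the 38 P450s in these same libraries. Their larger share on EO follows from that choice and is a description only, as is the sum without them. The 4 made up 5.98 to 12.6% of the summed P450 level on EO 10 mg/g and 24.5 to 31.2% on EO 30 mg/g. They made up 2.02 to 2.50% on D-camphor 17 mg/g, 2.46 to 3.70% on D-camphor 41 mg/g and 0.461 to 1.24% in untreated larvae. The summed level of all P450s was 4254 to 7462 TPM on EO 10 mg/g, 8019 to 9430.2 TPM on EO 30 mg/g, 5128 to 7191 TPM on D-camphor and 4305 to 5745 TPM in untreated larvae. EO 30 mg/g thus lay above every D-camphor and untreated library, and EO 10 mg/g overlapped both. Without these 4 unigenes the sum was 3921 to 6520 TPM on EO 10 mg/g, 6056 to 6489 TPM on EO 30 mg/g and 4987 to 7044 TPM on D-camphor.

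The 3 unigenes that were lower on EO were high on D-camphor 41 mg/g and near 0 on the other additive diets. Only the D-camphor 41 mg/g libraries brought them to the mean of 1 TPM that put them in the test. As the 4 diets share 1 estimate of the spread, the small spread near 0 also enters these calls. DN3631_c0_g1, described as skin secretory protein xP2-like, was at 0.33, 0.15 and 0 TPM on EO 10 mg/g and at 0.12, 0.05 and 0.50 TPM on EO 30 mg/g. It was at 0.04, 1.89 and 0.28 TPM on D-camphor 17 mg/g and at 248, 345 and 81.7 TPM on D-camphor 41 mg/g. Among untreated larvae 1 library was listed at 0 and the others had 271 and 45.8 TPM, so the untreated group spanned from EO levels to D-camphor 41 mg/g levels. Over both doses it was called at -3.88 ± 0.36 on the log2(TPM + 1) scale (adjusted p = 0.0050 in limma), but the difference was -0.44 at the lower doses (adjusted p = 0.743) and -7.31 at the higher doses (adjusted p = 0.00033). It was also the 1 unigene whose difference changed with the dose level, by -6.87 with a 95% interval of -8.47 to -5.27 (adjusted p = 0.0302 in limma). That last call held in 5 of the 12 refits without 1 library and was lost without any EO 30 mg/g library, replicate 1 or 2 of EO 10 mg/g, or replicate 1 or 3 of D-camphor 17 mg/g (adjusted p up to 0.165 in limma). It was lost without the 3 libraries that stood apart too (0.172), and with a pseudocount of 0.1 (0.108). Fitting all 15 libraries, in which the untreated spread counts, ended both of its calls.

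DN14538_c0_g1, a hypothetical protein, and DN16997_c0_g1, described as early nodulin-75, were named after their values were seen. On EO DN14538_c0_g1 stayed at 0.03 to 0.22 TPM, on D-camphor 17 mg/g at 0.07 to 0.13 TPM, and on D-camphor 41 mg/g it was at 13.5, 25.8 and 7.16 TPM, with 0, 8.38 and 0.16 TPM in untreated larvae. Its difference was -1.84 over both doses (adjusted p = 0.0260 in limma), made of 0.04 for the lower doses and -3.72 for the higher ones. DN16997_c0_g1 was at 0.02 to 0.18 TPM on EO, 0.08 to 0.28 TPM on D-camphor 17 mg/g, 2.78, 5.99 and 5.90 TPM on D-camphor 41 mg/g and 0.10, 1.40 and 0.51 TPM in untreated larvae. Its difference was -1.25 (adjusted p = 0.0353 in limma), with -0.12 at the lower doses. Of the 12 refits without 1 library, 2 kept the call of DN14538_c0_g1, those without D-camphor 41 mg/g replicate 2 or 3, with adjusted p otherwise up to 0.106 in limma. For DN16997_c0_g1 1 kept it, that without D-camphor 41 mg/g replicate 1, with adjusted p otherwise up to 0.157 in limma. The call of DN16997_c0_g1 was also lost without the 3 libraries that stood apart (adjusted p = 0.149 in limma), while that of DN14538_c0_g1 was kept (0.0332). A pseudocount of 0.1 or a fit to all 15 libraries ended both calls, and scaling ended that of DN16997_c0_g1.

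A histidine-rich protein, DN5640_c0_g1, was called at the higher doses (-5.66, adjusted p = 0.0049 in limma) but not over both (-2.64, adjusted p = 0.0929), where it was called without the 3 libraries that stood apart (-2.81, adjusted p = 0.0098). It was at 0.09 to 2.45 TPM on EO, 0.08 to 0.78 TPM on D-camphor 17 mg/g and 36.2, 161 and 71.7 TPM on D-camphor 41 mg/g. Its untreated libraries were listed at 0, 35.5 and 2.51 TPM. In each of these 4 unigenes every D-camphor 41 mg/g library lay above every library of EO and of D-camphor 17 mg/g. Since those same libraries brought all 4 past the filter, this separation is a description and no further support for the calls.

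**Figure D4:**
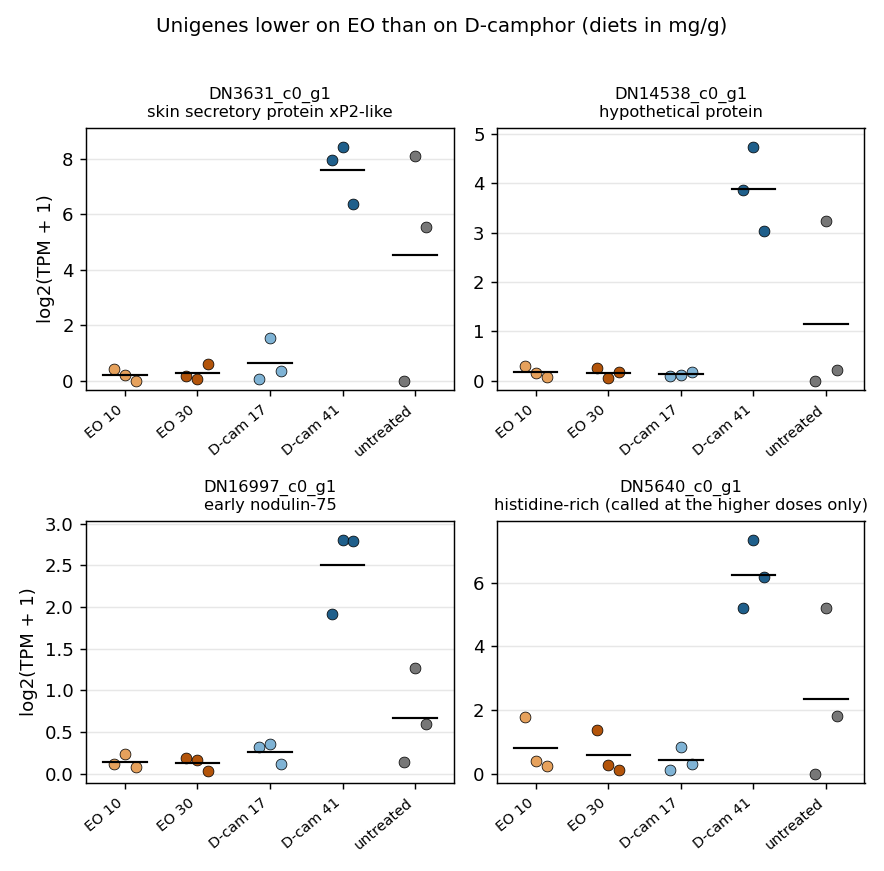
Levels, as log2(TPM + 1), of the 3 unigenes called lower on EO over both doses and of DN5640_c0_g1, called at the higher doses, in each library (points) with diet means (bars). The D-camphor 41 mg/g libraries stand above EO and D-camphor 17 mg/g, and the 3 untreated libraries are spread.

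Among the tested unigenes 68 had no overlap between the additives (0.548%), most of them at low levels. In 11 unigenes all 6 EO values lay above all 6 D-camphor values (0.0886%), with a median mean level of 77.2 TPM and a median difference of 1.36, and 4 of the 11 were called. In 57 all EO values lay below (0.459%), with a median mean level of 2.63 TPM and a median difference of -0.39, and none was called. Some in either set averaged under 1 TPM on their lower additive, down to 0.315 TPM on EO and 0.048 TPM on D-camphor. They reached the mean of 1 TPM only through the other additive, so their separation is a description and no support for a difference. The 11 include DN593_c0_g1, described as odorant-binding protein 10, one of the small secreted proteins that carry hydrophobic molecules. It was named after its values were seen and ran from 161 to 347 TPM on EO, from 114 to 155 TPM on D-camphor and from 115 to 253 TPM in untreated larvae (0.77, adjusted p = 0.330 in limma). They also include DN3132_c0_g1, described as an aldehyde dehydrogenase, an enzyme that oxidises aldehydes to acids, also named after its values were seen, at 4.37 to 6.26 TPM on EO and 3.43 to 4.29 TPM on D-camphor (0.28, adjusted p = 0.371 in limma).

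Further measures of the libraries moved with the additive. More unigenes were listed at 0 TPM in EO libraries, 7815 to 8444, than in D-camphor libraries, 6491 to 7252, with 6844 to 7416 in untreated libraries, and the exact two-sided permutation test over the 12 libraries gave p = 0.00216, the smallest that 924 splits allow. At an unadjusted p under 0.05, 262 unigenes were higher on EO (2.11%) and 1222 lower (9.84%). Without the 3 libraries that stood apart the split was 375 and 861. The same scaling turned it to 876 higher and 492 lower, and moved the median difference of all tested unigenes from -0.0831 to 0.0239, by 0.107. The scaling factors were 0.891 to 1.05 on EO and 0.952 to 1.16 on D-camphor. The counts of separated unigenes followed, with 55 above and 25 below after scaling. The lists below are therefore read beside the median of all unigenes. TPM keeps no read depth, so how depth moved with these counts was not tested.

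Of 12413 tested unigenes 3901 had a positive estimate (31.4%) and 6794 did after scaling. Among the enzymes that act on foreign compounds other than P450s, no list had a called member. All 11 tested epoxide hydrolases, which open epoxide rings and in insects degrade juvenile hormone, had positive estimates with and without scaling, with a median of 0.22. After scaling all 15 tested glutathione S-transferases were positive too, against 7 as deposited, and so were 16 of 18 antioxidant enzymes, against 12. At the lower doses 4 of the 11 epoxide hydrolases were positive and at the higher doses 10, with medians of -0.15 and 0.63, beside -0.15 and -0.02 over all tested unigenes. After scaling these list medians were 0.06 and 0.69, beside 0.02 and 0.03 over all tested unigenes. The epoxide hydrolase median over both doses was 0.36 after scaling, and 0.39 as deposited without the 3 libraries that stood apart. The member with the smallest p, DN1820_c1_g1, described as juvenile hormone epoxide hydrolase 1-like and named after its values were seen, had 73.2, 106 and 197 TPM on EO 10 mg/g and 282, 222 and 214 TPM on EO 30 mg/g. It had 109, 83.2 and 61.5 TPM on D-camphor 17 mg/g, 87.4, 49.96 and 59.4 TPM on D-camphor 41 mg/g and 29.6 to 55.4 TPM in untreated larvae (1.18, adjusted p = 0.247 in limma). The EO 10 mg/g libraries overlapped D-camphor, and the EO 30 mg/g libraries lay above it.

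The list medians of 35 alcohol, aldehyde and ketone oxidoreductases, 23 esterases, 15 glutathione S-transferases and 14 UDP-glycosyltransferases lay between -0.01 and 0.01 and between 0.12 and 0.14 after scaling. The 40 ABC transporters, pumps that move compounds across membranes, had a median of -0.14 with 33 negative estimates, and of -0.01 with 26 negative after scaling. The 4 sulfotransferases had a median of -0.31, and of -0.20 after scaling. The most abundant glutathione S-transferase, DN5591_c0_g1, averaged 945 ± 236 TPM on EO 10 mg/g and 1309 ± 84.7 TPM on EO 30 mg/g. It averaged 1219 ± 211 TPM on D-camphor 17 mg/g and 1053 ± 312 TPM on D-camphor 41 mg/g (SD, n = 3 each), so the additives overlapped. Antioxidant enzymes (18 tested, median 0.06) and heat shock proteins (21 tested, median -0.02) had no called member either.

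Cuticle protein levels were spread widely between libraries of the same diet. Of the 75 described, 57 were tested, none was called, and 3 were lower (5.26%) and none higher at an unadjusted p under 0.05, against 9.84% lower and 2.11% higher over all tested unigenes. Their median was -0.48, made of -0.02 at the lower doses and -0.99 at the higher doses. After scaling these were -0.37, 0.17 and -0.93, beside 0.02, 0.02 and 0.03 over all tested unigenes, so the lower-dose median changed sign. Without the 3 libraries that stood apart the median over both doses was -1.48, and none was called. The summed level ran from 6174 to 93016 TPM on EO, from 10899.8 to 57292 TPM on D-camphor and from 4252 to 8010 TPM in untreated larvae. The epidermis markers, which share members with this list, had a median difference of -0.76, or -1.83 without those 3 libraries. At the lower doses their median was 0.08 and at the higher doses -1.68, or 0.215 and -1.62 after scaling. The epidermis markers summed to 343 to 33411 TPM on EO, 1036 to 21692 TPM on D-camphor and 361 to 859 TPM in untreated larvae. Of the 22 genes for chitin and the peritrophic matrix, the lining of the gut, none was called. The most abundant of these, the peritrophin DN40978_c1_g1, averaged 464 ± 64.0 TPM on EO 10 mg/g and 638 ± 124 TPM on EO 30 mg/g, against 486 ± 39.5 TPM on D-camphor 17 mg/g and 444 ± 54.5 TPM on D-camphor 41 mg/g (SD, n = 3 each).

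Digestion, metabolism and hormone lists held no called member. Their counts at an unadjusted p under 0.05 stand against 2.11% higher and 9.84% lower over all tested unigenes. Digestive proteases (91 tested) had a median of 0.01 with 9 higher (9.89%) and 5 lower (5.49%). Enzymes of plant cell wall and carbohydrate digestion (39 tested) had a median of 0.04 with 5 higher (12.8%) and none lower. Lipid metabolism (47 tested) had a median of -0.17 with 3 higher (6.38%) and 9 lower (19.1%), and a median of -0.05 after scaling. Its member of smallest p, the acetyl-coenzyme A synthetase DN2808_c0_g1, which makes acetyl-CoA from acetate, was named after its values were seen. It was at 12.6 to 21.6 TPM on EO, 21.6 to 30.7 TPM on D-camphor and 15.6 to 18.8 TPM in untreated larvae (-0.74, adjusted p = 0.180 in limma). EO and D-camphor overlapped in 1 pair of libraries. Odorant-binding and chemosensory proteins (13 tested) had a median of 0.07 with 3 higher (23.1%) and 2 lower (15.4%). Their median was -0.17 at the lower doses and 0.655 at the higher doses, or 0.02 and 0.72 after scaling. Moulting and juvenile hormone genes (12 tested) had a median of -0.03 with 3 higher (25%) and 2 lower (16.7%). The 6 mevalonate pathway enzymes, which build isoprenoid precursors, had a median of -0.18, the 8 storage proteins and lipid carriers -0.05, and the 22 immune genes -0.11. Oxidative phosphorylation (59 tested, median 0.07), cytosolic ribosomal proteins (95 tested, median 0.07) and DNA replication (46 tested, median -0.01) had no called member. Scaling made positive the medians, negative as deposited, of oxidoreductases, glutathione S-transferases, heat shock proteins, moulting genes, storage proteins, DNA replication and the gut and germ line markers described below, to between 0.06 and 0.13. Leaving out the 3 libraries that stood apart made positive the medians of oxidoreductases (0.06), glutathione S-transferases (0.06), DNA replication (0.05) and the germ line markers (0.08), and made negative that of ribosomal proteins (-0.02).

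**Figure D5:**
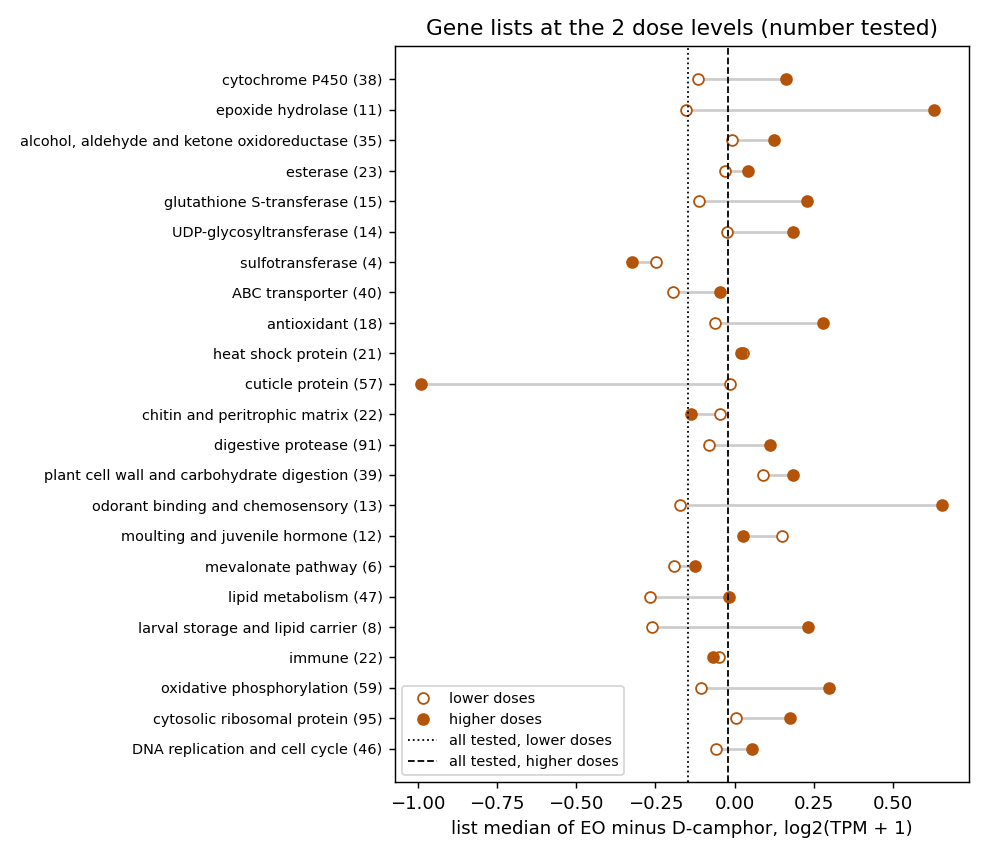
Median difference between EO and D-camphor over the tested members of each gene list, on the log2(TPM + 1) scale, at the lower doses (open circles) and the higher doses (filled circles), with the medians of all 12413 tested unigenes at the lower doses (dotted, -0.15) and the higher doses (dashed, -0.02). Odorant-binding and chemosensory proteins reach 0.655, epoxide hydrolases 0.63 and cuticle proteins -0.99 at the higher doses. At the lower doses they lie at -0.17, -0.15 and -0.02, where scaling turned each positive (0.02, 0.06 and 0.17). After scaling the median of all tested unigenes at the lower doses was 0.02.

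Unigenes DN17678_c0_g1 and DN3101_c0_g1 share the description hypothetical protein D910_00123 and had their larger difference at the lower doses, without a call. DN3101_c0_g1 averaged 521 ± 93.7 TPM on EO 10 mg/g and 1071 ± 171 TPM on EO 30 mg/g. It averaged 1212 ± 126 TPM on D-camphor 17 mg/g, 1217 ± 122 TPM on D-camphor 41 mg/g and 507 ± 163 TPM in untreated larvae (SD, n = 3 each). The difference was -1.23 at the lower doses and -0.19 at the higher, and -0.71 over both (adjusted p = 0.122 in limma). For DN17678_c0_g1 the corresponding values were -1.30, -0.28 and -0.79. EO 10 mg/g lay among the untreated values in both unigenes, and EO 30 mg/g reached into the range of D-camphor. Uncalled unigenes of smallest p also included DN6623_c0_g1, DN7788_c0_g1, DN5585_c0_g1 and DN2083_c0_g2, all lower on EO. Their differences at the lower and higher doses were, in that order, -0.46 and -0.69, -0.48 and -0.44, -0.93 and -0.37, and -0.32 and -1.71. DN2083_c0_g2 was called over both doses without the 3 libraries that stood apart (adjusted p = 0.0356 in limma). DN15796_c0_g1, higher on EO, had 0.65 and 2.88.

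Column sums ran from 999999.16 to 1000001.21 TPM, 11478 to 13659 unigenes exceeded 1 TPM, and the 10 most abundant held 18.5 to 24.7% of the total. Muscle markers summed to 10990.4 to 13908 TPM on EO and 12018 to 15783 TPM on D-camphor, and 27 of the 30 tested had negative estimates (median -0.26, -0.12 after scaling, none called). Over all 12413 tested unigenes 8512 estimates were negative. After scaling 21 of the 30 muscle markers and 5619 of all unigenes were negative. At an unadjusted p under 0.05, 8 muscle markers were lower on EO (26.7%) and none higher, against 9.84% and 2.11% of all tested unigenes. Gut markers summed to 59555 to 79652 TPM on EO and 60150.4 to 71340.4 TPM on D-camphor, fat body markers to 1725 to 7411 TPM on EO and 3009.6 to 5694 TPM on D-camphor, and haemocyte markers to 205 to 320.4 TPM on EO and 237 to 429.9 TPM on D-camphor. No member of these marker lists was at 0 in all 12 libraries, and the 2 nervous system markers in the table summed to less than 1 TPM in each. The 2 germ line markers, both tested, were not called. Fewer cells of a type and less RNA per cell cannot be told apart in such whole-body RNA, and the part of these markers in the results was not tested. Correlation of log2(TPM + 1) between libraries had a median of 0.947 within a diet, 0.936 between the doses of an additive and 0.934 between additives.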

How the data were processed

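Total RNA of whole larvae was extracted with TRIzol and made into Illumina libraries, per the labels' protocols. The deposited table holds, for each of 34486 assembled unigenes, the TPM value in each library and a protein description by similarity; assembler settings, aligner and counting method were not given in the sources used here. TPM was used as deposited and is not a count, so the depth is unknown and counting intervals are left out. A mean of at least 1 TPM over the 12 EO and D-camphor libraries left 12413 unigenes, of which 9061 have a description. Values were taken as log2(TPM + 1), with a pseudocount of 1, and fitted in limma 3.58.1 (R 4.3.3) with 1 mean per diet and a variance trend, giving 8 residual degrees of freedom. The contrast is the mean of both EO diets minus the mean of both D-camphor diets, tested two-sided with Benjamini-Hochberg adjustment over all 12413; fold changes on this scale understate those of low unigenes. The steps were tested on simulated data. Summaries and figures used Python 3.11.15, pandas 2.3.3 and matplotlib 3.10.9.

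The unigenes and lists were chosen with earlier results of these data known, and the search words that find list members in the descriptions were written after the table was seen. Named unigenes were drawn from called ones with separated additives, called members of lists, the uncalled ones of smallest p up to 10 per direction, the most abundant members of lists without a call, and the call on the dose levels. Others are marked as named after their values were seen. No sequence of the unigenes was in the files used. The alternatives tried were no filter, a pseudocount of 0.1, a mean of at least 5 TPM, median-of-ratios scaling, the replicate number as a block, array quality weights, all 15 libraries, no trend, 1 mean per additive, each library left out, and the 3 libraries that stood apart left out together.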

Additional observations from a re-analysis of the deposited data

Results flagged for a closer look

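The difference between EO and D-camphor in DN3631_c0_g1, described as skin secretory protein xP2-like, was not the same at the 2 dose levels. It was -7.31 on the log2(TPM + 1) scale for EO 30 mg/g against D-camphor 41 mg/g and -0.44 for EO 10 mg/g against D-camphor 17 mg/g, a difference between the dose levels of -6.87 (adjusted p = 0.0302 in limma, 3 libraries per diet). The call held in 5 of 12 refits without 1 library and in 5 of 9 other settings. It was lost with a pseudocount of 0.1 (adjusted p = 0.108 in limma), the replicate block (0.0971), all 15 libraries (0.242) and without the 3 libraries that stood apart (0.172). All 3 D-camphor 41 mg/g libraries, at 81.7 to 345 TPM, lay above the other 9, at 0 to 1.89 TPM, while the untreated libraries ranged from 0 to 271 TPM. Only these 3 D-camphor libraries brought DN3631_c0_g1 to the mean of 1 TPM needed for testing.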

How the results depend on the processing

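The count of unigenes called over both doses, 9, became 24 without the 3 libraries that stood apart and 1 with 1 mean per additive, and ranged from 5 to 14 when 1 library was left out; it was lowest without D-camphor 17 mg/g replicate 2 or 3 and highest without D-camphor 41 mg/g replicate 3. Of these, the 6 higher on EO became 1 with 1 mean per additive and otherwise ranged from 4 to 8 without 1 library. The 3 lower on EO depended more on the settings: 1 with a pseudocount of 0.1, 6 with no filter, 1 with a mean of at least 5 TPM, 5 with array weights, 0 with all 15 libraries, 0 with 1 mean per additive, 17 without the 3 libraries, and 1 to 8 without 1 library. EO 10 mg/g against D-camphor 17 mg/g, 1 call, gave 2 with a pseudocount of 0.1, 5 with no filter, 0 without the 3 libraries, and 0 to 3 without 1 library. EO 30 mg/g against D-camphor 41 mg/g, 14 calls, gave 22 with no filter, 31 without the 3 libraries, and 7 to 29 without 1 library. The difference between the dose levels, 1 call, gave 3 with no filter, 2 with scaling, 0 with all 15 libraries, 0 without the 3 libraries, and 0 to 15 without 1 library, with 15 reached without D-camphor 41 mg/g replicate 1. The cause of these changes was not tested. The difference over both doses kept its sign under every alternative that gave a value, for the named unigenes followed through these settings. The most abundant members of lists without a call, and DN2716_c0_g3, were not followed. Of these, DN5591_c0_g1 was at -0.01 as deposited, and all 15 tested glutathione S-transferases were positive after scaling. The split at an unadjusted p under 0.05, 262 higher and 1222 lower, reversed to 876 and 492 with scaling, which also turned positive the medians of all unigenes, P450s and the further lists named for it above. Without 1 library its counts reached 381 higher (without EO 10 mg/g replicate 1) and 705 to 1446 lower (fewest without D-camphor 17 mg/g replicate 2). DN9219_c0_g1, DN986_c0_g1, DN986_c0_g2, DN1085_c0_g1 and DN3631_c0_g1 were called over both doses in all 12 refits without 1 library.

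Samples with the same replicate number had deviations from their diet means that correlated at -0.348 to 0.561 (median 0.0461, 18 pairs), against -0.384 to 0.445 (median 0.0194, 36 pairs) for different numbers. Each library's correlations with the other diets were averaged by replicate number. In 8 of 12 libraries, not all, their own number had the highest mean of the 3 numbers, a hint of shared deviation from the data and not from the design. As the labels give no shared origin and not every pair correlated positively, the number was not taken as a pairing. With the replicate block 6 unigenes were called over both doses, 5 higher and 1 lower on EO, and 0 for the lower doses alone and 0 for the difference between the dose levels. The calls that ended were those of DN1904_c0_g1, DN14538_c0_g1 and DN16997_c0_g1 over both doses, DN9219_c0_g1 at the lower doses (adjusted p = 0.108 in limma) and DN3631_c0_g1 between the dose levels (0.0971). TPM keeps no depth, so what depth limits cannot be stated, and 3 libraries per diet limit the precision.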

Other observations

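Descriptions that name organisms other than insects, such as bacteria, fungi, nematodes, mites or plants, occurred in 217 unigenes, and 82 of these were tested. None was called, 10 were higher and 3 lower on EO at an unadjusted p under 0.05 (background 2.11% and 9.84%), and their summed level was 13997 to 20624 TPM on EO, 14131 to 17849 TPM on D-camphor and 13543 to 20983 TPM in untreated larvae. Their median difference was -0.20 at the lower doses and 0.67 at the higher doses, beside -0.15 and -0.02 over all tested unigenes. After scaling it was -0.02 and 0.72, beside 0.02 and 0.03 over all tested unigenes. Over both doses it was 0.19, or 0.03 without the 3 libraries that stood apart.

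In 2 unigenes of moderate level the additives were further apart at the higher doses than over both. DN2305_c0_g1, a hypothetical protein, had 142, 120 and 105 TPM on EO 30 mg/g and 45.8, 32.2 and 47.5 TPM on D-camphor 41 mg/g, so these diets did not overlap (1.53, adjusted p = 0.0083 in limma). At the lower doses it averaged 80.1 ± 13.0 TPM on EO 10 mg/g and 76.0 ± 6.95 TPM on D-camphor 17 mg/g (SD, n = 3 each), with a difference of 0.07. DN5695_c0_g1, also a hypothetical protein, averaged 11.2 ± 3.02 TPM on EO 30 mg/g and 1.68 ± 0.60 TPM on D-camphor 41 mg/g (SD, n = 3 each), a difference of 2.17 (adjusted p = 0.0423 in limma). Both were named because their p over both doses was among the smallest of the uncalled.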
